A study of Bos taurus and Mus musculus with 16 samples.

Results

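Control mouse morulae were set beside control bovine blastocysts, 2 preimplantation embryo types from one study of the transcription factor TEAD4. The members are the 7045 genes that carry the same symbol in both expression tables, letter case ignored and 1 row in each, and that average 10 or more normalized reads over the control samples of each table. Those 7045 genes come from 10698 symbols shared by a mouse table of 16655 genes and a bovine table of 14852 genes. Another 1612 shared symbols reached a mean of 10 in mouse only, 545 in bovine only and 1496 in neither. The control samples were 8 of the 16 samples of the study.

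The mouse controls were 2 samples of morulae (replicates 1 and 2) collected at day 3.25 after fertilization, and the bovine controls were 6 samples of blastocysts (replicates 1 to 6) collected at day 7.0. All 8 came from zygotes injected with mRNA of BE3, a base editor made of a Cas9 nickase joined to a cytidine deaminase, and none received a guide RNA, so that an uninjected embryo is not part of either group. Messenger RNA was primed at its poly(A) tail with oligo(dT) and amplified by Smart-seq2, a full-length cDNA method for small samples. The sources used here do not give strain, breed, embryos per sample or separate injection days. Each p-value therefore rests on how these samples spread, and that spread may be technical. The limma fit used below pools that spread over both groups and draws it towards a trend over all members. Species and stage differ together in this comparison, as do gene annotation, age and library depth, and their parts in any difference cannot be told apart.

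A morula is a compacted ball of cells in which outer cells become polarized and inner cells do not. Hippo signalling is held off in the polarized outer cells, the co-activator Yap1 then enters the nucleus, and with Tead4 it turns on genes of the trophectoderm, the first epithelium of the embryo. By the blastocyst stage the trophectoderm encloses a fluid-filled cavity and an inner cell mass, which sorts into epiblast and primitive endoderm, and cattle blastocysts stay free in the uterus and elongate long before they attach.

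The tables of the 2 species were normalized separately, so the main test did not compare levels across them. Instead the members were ranked by their reads within each sample and the rank was written as a percentile, where 100 is the gene with the most reads. A rank does not depend on how a table was scaled. It is relative to the other members, and it compares reads, which grow with transcript length, so that ranks compare a gene with itself across species rather than one gene with another. In whole embryos, fewer cells of a type and less RNA per cell cannot be told apart. A gene is said to rank higher in one species where limma gave an adjusted p under 0.05 over all 7045 genes. The alternative fit with edgeR did compare recovered read counts across species, after its own scaling for library size and composition. Gene annotation and transcript length differ in that comparison too. A difference is the mean percentile of the mouse samples minus that of the bovine samples, in percentile points. It is given with limma's moderated standard error (mouse n = 2, bovine n = 6), not with the plain spread of the gene. Bovine values are written as the lowest, the median and the highest of the 6 samples. Bovine percentiles near 0 rest on few reads and are imprecise. The gene Bax, at percentiles of 1.02, 6.81 and 15.1, had 5.83, 12.9 and 18.5 normalized reads.

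Gene-assigned reads numbered 4187826 and 3642907 in the mouse libraries and 934078 to 2501592 in the bovine libraries. Members took 82.2% to 82.4% of the mouse reads and 53.5% to 76.7% of the bovine reads. In the bovine samples the 18S ribosomal RNA gene RN18S1, which is no member, took 12.4% to 36.6% of the reads, with the highest share in replicate 6. That sample stood apart from the other bovine samples. Its Spearman correlations with them across members were 0.831 to 0.877, against 0.875 to 0.964 among the other 5. Genes are not independent replicates, and these correlations are descriptions of the libraries. The mouse pair correlated at 0.982, and the 12 pairs of a mouse and a bovine sample at 0.522 to 0.590. Trophoblast products of ruminants were present in the bovine samples, with PAG2 at 6.16, 102.5 and 206 normalized reads and IFNT3 at 9.20, 27.5 and 206. Marker genes of cumulus, blood, sperm and fibroblast cells gave no member, but only 6, 5, 0 and 2 of them were listed for both species. Their summed levels per sample were 21.03 to 48.6, 27.4 to 50.9, 2.63 to 37.9 and 47.9 to 271 normalized reads in bovine. In mouse the same sums were 520 to 559, 154 to 164, 1.26 to 11.2 and 21.5 to 23.5, and Nr5a2, a nuclear receptor also expressed by early embryos, gave 437 of the cumulus sum. A mean of 10 was reached in bovine by 3 of 8 fibroblast, 1 of 9 blood, 0 of 9 cumulus and 0 of 4 sperm markers. In mouse it was reached by 3 of 7 cumulus, 2 of 7 blood, 1 of 4 fibroblast and 0 of 1 sperm markers. The part of other cells in the results was not tested.

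Ranks of the members were related between the species but far from the same. Of the 7045 members 1730 ranked higher in the mouse morulae (24.6% of those tested) and 1766 higher in the bovine blastocysts (25.1%), so 49.6% were called in either direction. The median absolute difference was 14.3 points, 1499 members (21.3%) lay within 5 points, and 455 differed by at least 50 points. Of those 455 genes 220 ranked higher in mouse and 235 higher in bovine, and all 455 were called. The groups did not overlap for 4100 members (58.2%), 2119 of them with mouse higher (30.1%) and 1981 with bovine higher (28.1%). Counts of calls leaned on the 2 mouse samples: without mouse replicate 1 the total was 2055, without mouse replicate 2 it was 2106, and 1880 members (26.7%) were called in every fit that left out 1 sample, 832 higher in mouse (11.8%) and 1048 higher in bovine (14.9%). Leaving out bovine replicate 6 gave 3871 calls. The spread between samples of a species was wider in bovine, with a median SD of 7.93 points against 2.02 in mouse. Counts given below for gene lists are to be read beside these shares of all members, and no list was tested against them. Genes named for the largest differences, of a list or of all members, were chosen among calls without overlap. Their lack of overlap is thus a condition of the choice and no further result.

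**Figure D1:**
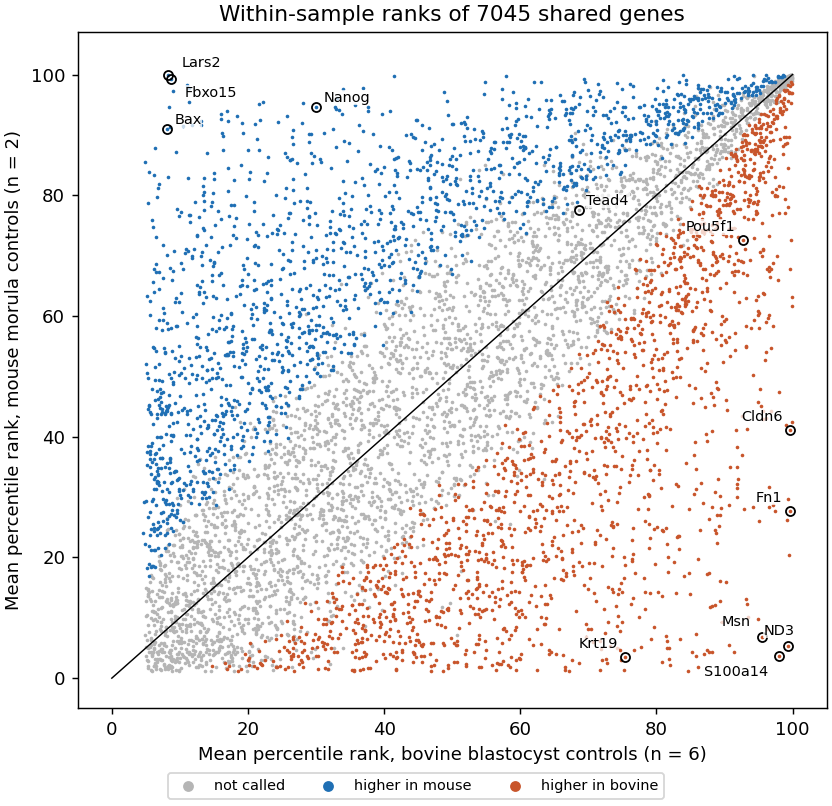
Each point is 1 of the 7045 shared genes, with its mean percentile rank over the 6 bovine blastocyst controls on the horizontal axis and over the 2 mouse morula controls on the vertical axis; the line marks equal ranks. Blue and orange points passed an adjusted p of 0.05, 1730 higher in mouse and 1766 higher in bovine, and the circled genes are described in the text.

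Among the 100 members with the most reads in each species, 48 were the same genes, and among the lowest 500 only 110 were. The 8 genes with the highest rank in both species were the cytoskeletal actin Actb, the mitochondrial genes CYTB and ND1, the translation elongation factor Eef1a1, the chaperones Hsp90aa1, Hsp90ab1 and Hspa8, and the ribosomal stalk protein Rplp0. Mouse copies over more than 50% of the transcript were found for Eef1a1, Hsp90aa1, Hspa8 and Rplp0. In limma none of the 8 was called, but percentiles near 100 leave little room for a difference. On reads edgeR called 6 of them, Hsp90ab1, Hsp90aa1, Hspa8, CYTB and Rplp0 higher in mouse and Actb higher in bovine. Hsp90ab1 had a log2 difference of 2.25 (adjusted p = 2.8e-08) and Actb one of -0.74 (adjusted p = 0.00467), while Eef1a1 and ND1 were not called. In percentiles Actb stood at 99.9 and 99.95 in mouse and at 99.96, 99.98 and 99.98 in bovine. The difference was -0.0379 ± 0.351 points (adjusted p = 0.936). Its SD was 0.0201 points in mouse and 0.00733 in bovine, so that standard error came mostly from the trend over all members.

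Trophectoderm came first among the lineages. Of 15 member transcription factors linked to it, 2 ranked higher in mouse, 4 higher in bovine and 9 were not called, with a median difference of -1.82 points, against a median of -0.0438 over all members. Gata3, which drives trophectoderm genes downstream of Tead4, stood at 89.5 and 89.9 in the mouse samples and at 87.1, 91.97 and 94.2 in the bovine samples. Its difference was -1.82 ± 1.56 points (adjusted p = 0.355) and the groups overlapped. Klf5, a zinc finger factor active in both lineages, likewise overlapped, at 92.7 and 92.2 in mouse and 91.6, 92.8 and 95.1 in bovine. Tfap2c, an AP-2 factor of early trophectoderm, stood at 83.2 and 82.98 in mouse and 87.5, 91.5 and 92.4 in bovine. Both mouse samples lay below every bovine sample, and the difference was -7.81 ± 1.33 points (adjusted p = 5.80e-04), a call that edgeR did not make (adjusted p = 0.129).

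Grhl1, Msx2 and Elf3 differed much further. Grhl1, a grainyhead factor that controls junction genes, stood at 3.39 and 1.99 in mouse and 74.2, 83.2 and 83.9 in bovine. Mouse samples were near the bottom of the order and bovine samples near its top, a difference of -78.2 ± 5.37 points (adjusted p = 5.43e-07). Msx2, a homeobox factor, ran the same way at 17.99 and 16.2 against 49.9, 70.97 and 76.1, a difference of -50.8 ± 7.78 points (adjusted p = 2.78e-04). Elf3, an ETS factor of epithelia, ran the opposite way, at 92.2 and 94.05 in mouse and 0.234, 15.5 and 44.3 in bovine. Its mouse samples were both above all bovine samples, with a difference of 74.8 ± 9.60 points (adjusted p = 8.05e-05). The lowest bovine value of Elf3, in replicate 2, was 1.54 normalized reads, the level of 1 read in that sample. Cdx2, the homeobox factor that maintains trophectoderm in the mouse, was not a member because its bovine mean was under 10. It had 54.8 and 58.2 normalized reads in the mouse samples and 1.46, 6.79 and 19.9 in the bovine ones, values that cannot be set against each other because the tables were scaled apart.

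Products of the trophectoderm mostly ranked higher in the blastocysts. Of 18 members 11 ranked higher in bovine, 10 of them in every fit that left out 1 sample, 1 ranked higher in mouse and 6 were not called. Median percentiles were 87.9 in mouse and 94.0 in bovine. Krt8 and Krt18, the paired keratins of simple epithelia, were already near the top in morulae. The mouse pseudogene Krt8-ps matches 48.1% of the Krt8 transcript at 98.6% identity, so the Krt8 rank is uncertain. Krt8 stood at 96.8 and 97.2 in mouse and 99.8, 99.9 and 99.95 in bovine, a difference of -2.90 ± 0.385 points (adjusted p = 1.01e-04). Krt18 stood at 93.9 and 96.6 and at 99.7, 99.8 and 99.9, a difference of -4.53 ± 0.614 points (adjusted p = 1.21e-04). Krt19, a keratin of the same class without a fixed partner, was low in morulae. It stood at 0.866 and 6.10 in mouse and at 51.2, 78.4 and 96.6 in bovine, so that the bovine samples covered a wide range and still lay above both mouse samples. The difference was -71.97 ± 11.95 points (adjusted p = 4.94e-04). Krt7, the remaining keratin member, had mean percentiles of 7.10 and 50.7 and an adjusted p of 0.0516.

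Surface and endocytic genes split by size of difference. Lgals3, a galectin that binds galactose-bearing glycans, stood at 32.5 and 22.7 in mouse and at 96.2, 97.3 and 98.7 in bovine, a difference of -69.9 ± 2.55 points (adjusted p = 4.02e-09). Its mouse samples lay far below every bovine sample. Lrp2 (megalin), a large endocytic receptor, and Dab2, its adaptor, were high in both species. Lrp2 stood at 94.7 and 95.9 in mouse and 96.96, 97.6 and 98.1 in bovine, and its difference of -2.25 ± 0.557 points (adjusted p = 0.00611) lost the call without mouse replicate 1 (adjusted p = 0.098) and with edgeR (adjusted p = 0.0988). Dab2 stood at 92.4 and 92.97 and at 96.3, 97.1 and 98.3, a difference of -4.53 ± 0.663 points (adjusted p = 2.02e-04). The mouse samples of both genes lay below the bovine range. Epcam, an epithelial adhesion protein, with means of 95.1 and 96.7, was not called.

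**Figure D2:**
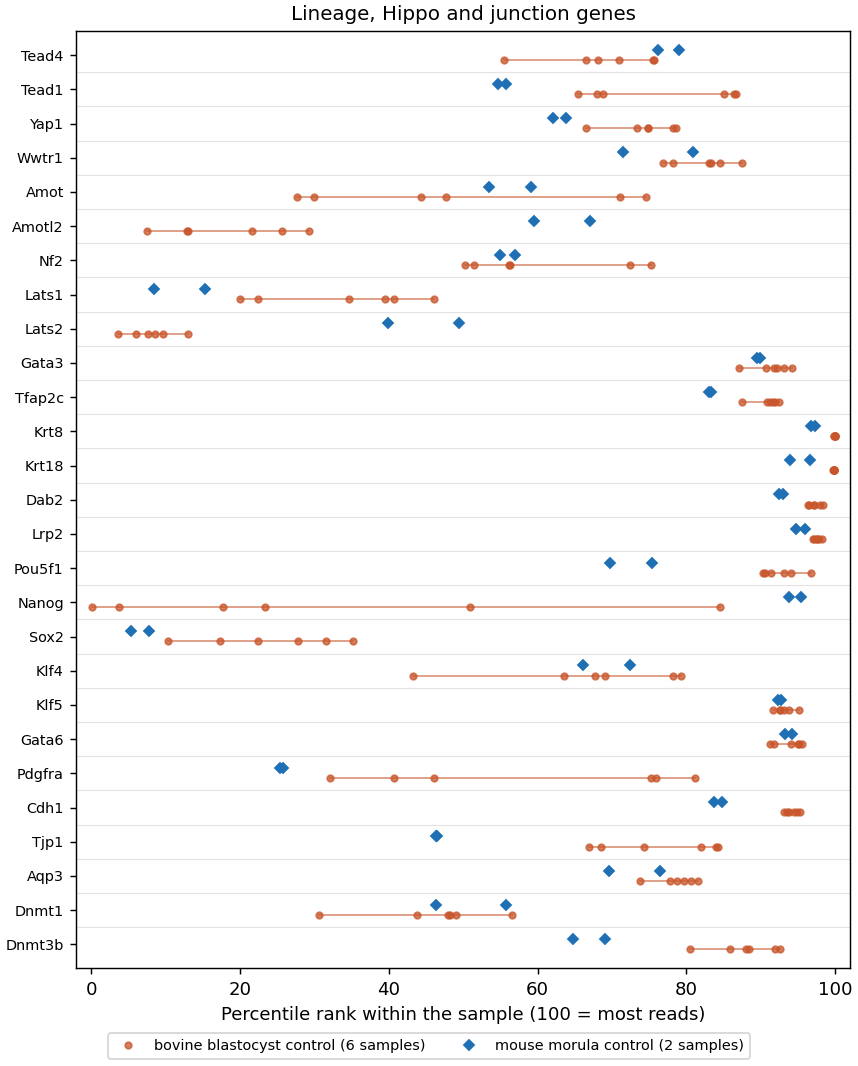
Percentile rank within the sample (horizontal axis, 100 is the most reads) of the lineage, Hippo and junction genes that are members, with blue diamonds for the 2 mouse morula controls and orange points for the 6 bovine blastocyst controls joined by a line over their range. Gata3, Gata6, Klf4 and Klf5 overlap between the species. Nanog spans from 0.0639, a rank that rests on few or no reads, to 84.5 among the bovine samples.

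Genes listed for the epiblast and inner cell mass ranked higher in the morulae more often than the reverse. Of 22 members 11 ranked higher in mouse, 5 higher in bovine and 6 were not called, with a median difference of 8.47 points, and 8 and 2 of them held in every fit that left out 1 sample. The mouse morula has no separate epiblast, and not every gene of the list is particular to that lineage. Nanog, a homeobox factor of naive pluripotency, stood at 93.8 and 95.4 in the mouse samples. Its bovine values were 0.0639, 20.5 and 84.5, the widest range of any core gene, and all 6 lay below the mouse samples. A percentile as low as 0.0639 rests on few or no reads, and 9 members had 0 reads in bovine replicate 1. The difference was 64.5 ± 18.5 points (adjusted p = 0.0131), which did not pass without either mouse sample (adjusted p up to 0.0878) or per transcript length (48.8 points, adjusted p = 0.0563). Pou5f1 (Oct4), its partner in the pluripotency network, ran the other way, at 69.7 and 75.4 in mouse and 90.3, 92.2 and 96.7 in bovine. All bovine samples were above both mouse samples, and the difference was -20.1 ± 1.95 points (adjusted p = 9.13e-06). Sox2, the third factor of that network, was low in both at 7.76 and 5.36 and 10.3, 25.1 and 35.2. Its difference of -17.5 ± 6.62 points (adjusted p = 0.0462) was lost without either mouse sample and without bovine replicates 3, 4, 5 or 6 (adjusted p up to 0.226). Klf4, a zinc finger partner of these factors, overlapped between groups at 66.1 and 72.5 and 43.2, 68.4 and 79.2 and was not called (adjusted p = 0.824).

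The largest difference of that list belonged to Fbxo15, an F-box protein gene bound by Oct4 and Sox2 in mouse stem cells. It stood at 99.4 and 99.2 in mouse and 1.66, 7.84 and 18.02 in bovine, a difference of 90.7 ± 5.74 points (adjusted p = 2.82e-07). The mouse samples were near the very top of the order and the bovine samples near its bottom. Gdf3, a TGF-beta family ligand of pluripotent cells, stood at 62.1 and 54.6 and 0.0639, 1.58 and 39.4, a difference of 48.7 ± 9.69 points (adjusted p = 0.00163). Spp1, the secreted matrix protein osteopontin, stood at 74.5 and 67.2 and 0.284, 5.49 and 46.7, a difference of 59.6 ± 10.7 points (adjusted p = 8.52e-04). Neither gene overlapped between groups, although 1 bovine sample of each lay far above the other 5. The lowest Gdf3 rank was that of 0 reads, in bovine replicate 1. Dppa3 (Stella), a maternal factor that shields imprints, was near the top in mouse at 99.9 and 99.9 and at 91.1, 94.8 and 95.6 in bovine, a difference of 5.73 ± 1.05 points (adjusted p = 9.54e-04), with a mouse copy over 54.1% of its transcript. Among members of the list that the naming rule did not take, Gjb5, a gap junction gene, Esrrb, an orphan nuclear receptor, and Spic, an ETS factor, ranked higher in bovine. Their mean percentiles were 34.6 and 76.4 for Gjb5, 50.1 and 77.2 for Esrrb, and 86.2 and 92.5 for Spic, mouse before bovine. Esrrb lost its call without mouse replicate 1 (adjusted p = 0.0566). Spic overlapped between groups, its difference was -1.80 points without mouse replicate 2 (adjusted p = 0.411), and edgeR did not call it (adjusted p = 0.425).

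Of 15 primitive endoderm and basement membrane members 3 ranked higher in mouse, 3 higher in bovine and 9 were not called. Over all members 24.6% ranked higher in mouse and 25.1% in bovine. Gata6, the factor that specifies primitive endoderm, stood at 93.3 and 94.2 in mouse and 91.3, 94.5 and 95.5 in bovine, with overlapping groups and a difference of -0.0272 ± 1.18 points (adjusted p = 0.988). Pdgfra, the receptor that marks the lineage, stood at 25.4 and 25.8 in mouse and 32.1, 60.7 and 81.1 in bovine. Every bovine sample was above both mouse samples, and the difference of -32.9 ± 12.9 points (adjusted p = 0.0529) missed the threshold in limma while edgeR called it (adjusted p = 0.003). Fn1 (fibronectin), a matrix protein, stood at 29.2 and 26.3 in mouse and 99.01, 99.7 and 99.8 in bovine, a difference of -71.9 ± 1.72 points (adjusted p = 3.7e-10). Sparc, a collagen-binding matrix protein, stood at 11.1 and 5.36 and 93.2, 96.5 and 97.8, a difference of -87.98 ± 3.06 points (adjusted p = 3.03e-09). Both genes were near the top of every bovine sample and in the lower part of both mouse samples. Apoe, the lipid carrier apolipoprotein E, ran the opposite way at 74.2 and 77.1 in mouse and 0.0994, 0.564 and 35.4 in bovine, a difference of 64.1 ± 10.5 points (adjusted p = 4.56e-04).

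Hippo pathway genes gave calls in both directions, where 24.6% of all members ranked higher in mouse and 25.1% higher in bovine. Of 29 members 8 ranked higher in mouse, 10 higher in bovine and 11 were not called, and 3 and 5 held in every fit that left out 1 sample. Tead4 (chromosome 6, 128224288 to 128300823, minus strand, GRCm38), the DNA-binding partner of Yap1 that the study edits in its other samples, stood at 76.1 and 78.9 in mouse and 55.4, 69.5 and 75.6 in bovine. Both mouse samples were above all bovine samples by a narrow margin, and the difference of 8.88 ± 5.27 points (adjusted p = 0.185) did not pass in limma. edgeR's quasi-likelihood test on recovered reads called it at an adjusted p of 0.0249. Tead1, a second TEAD factor, ran the other way at 54.6 and 55.7 against 65.4, 76.9 and 86.6. Its difference of -21.5 ± 6.47 points (adjusted p = 0.0168) was lost without either mouse sample (adjusted p up to 0.102) and per transcript length (adjusted p = 0.141). Yap1 stood at 62.1 and 63.8 in mouse and 66.4, 74.9 and 78.5 in bovine, a difference of -11.4 ± 3.998 points (adjusted p = 0.0339). That call was lost without either mouse sample, without bovine replicates 1, 2, 3 or 4 (adjusted p up to 0.184), per transcript length (adjusted p = 0.276) and with edgeR (adjusted p = 0.154). Wwtr1 (Taz), the other co-activator, overlapped between groups at 71.4 and 80.8 and 76.8, 83.2 and 87.4 and was not called (adjusted p = 0.143).

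Upstream of these factors the kinases and scaffolds differed by paralog. Lats1 and Lats2 are the kinases that phosphorylate Yap1. Lats2 stood at 39.9 and 49.4 in mouse and 3.63, 8.06 and 13.02 in bovine, a difference of 36.6 ± 4.76 points (adjusted p = 8.99e-05), and is uncertain because the overlapping mouse gene model Gm49361 matches 56.9% of its transcript at 100% identity. Lats1 stood at 15.3 and 8.48 and 20.03, 37.04 and 46.1, a difference of -22.0002 ± 7.48 points (adjusted p = 0.0297) that was lost without either mouse sample (adjusted p up to 0.223) and per transcript length (adjusted p = 0.0514). Lats2 was thus above the bovine range in both mouse samples and Lats1 below it. The angiomotins hold Yap1 at junctions and the actin cortex, and among them Amotl2 stood at 59.5 and 67.1 in mouse and 7.52, 17.3 and 29.2 in bovine, a difference of 44.96 ± 6.73 points (adjusted p = 2.41e-04). Amot overlapped at 53.5 and 59.05 and 27.6, 46.01 and 74.5, with an adjusted p of 0.653. Nf2 (merlin), which brings Lats kinases to the membrane, also overlapped at 54.9 and 56.99 and 50.2, 56.3 and 75.2, with an adjusted p of 0.665.

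Taok3, Ptpn14 and Mpp5 were low in mouse and well up the order in bovine. Taok3, a kinase of the TAO group, stood at 4.05 and 9.65 in mouse and 59.7, 71.1 and 73.6 in bovine, a difference of -62.8 ± 6.31 points (adjusted p = 1.22e-05). Ptpn14, a phosphatase that binds Yap1, stood at 3.39 and 0.369 and 45.1, 55.02 and 81.1, a difference of -56.7 ± 8.76 points (adjusted p = 2.97e-04). Mpp5 (Pals1), a scaffold of the Crumbs polarity complex, stood at 24.4 and 32.6 and 78.6, 81.3 and 88.1, a difference of -53.9 ± 4.43 points (adjusted p = 2.65e-06). None of the 3 overlapped between groups. Of 9 member genes that Yap1 and TEAD factors induce in cultured cells, 6 ranked higher in mouse and 2 higher in bovine, 4 and 2 of them in every fit that left out 1 sample, with a median difference of 20.6 points. Over the 7 of them with a transcript length the median was 7.98 points by reads and 6.45 points per length. Their best known members, the secreted matricellular proteins Ctgf and Cyr61, had mean percentiles of 35.8 and 47.9 in mouse and 15.2 and 14.5 in bovine. Both ranked higher in mouse at adjusted p of 0.018 and 0.0207, and neither call passed without either mouse sample (adjusted p up to 0.163 and 0.123). The groups of Cyr61 overlapped, and edgeR did not call Ctgf (adjusted p = 0.074).

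Junction genes, which seal the epithelium, ranked higher in the blastocysts more often than the reverse. Of 26 members of tight and adherens junctions and desmosomes 18 ranked higher in bovine, 17 of them in every fit that left out 1 sample, and 2 ranked higher in mouse. Their median percentiles were 54.3 in mouse and 82.2 in bovine, with a median difference of -14.0 points. Cdh1 (E-cadherin) stood at 83.7 and 84.8 in mouse and 93.1, 94.1 and 95.2 in bovine, a difference of -9.92 ± 0.876 points (adjusted p = 4.48e-06). Tjp1 (ZO-1), the tight junction scaffold, stood at 46.4 and 46.5 and 66.8, 78.1 and 84.3, a difference of -30.2 ± 5.61 points (adjusted p = 0.00106). In both genes every bovine sample was above both mouse samples.

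Differences were wider for desmosome genes and a claudin. Cldn6, a claudin of embryonic epithelia, stood at 32.8 and 49.4 in mouse and 99.3, 99.7 and 99.7 in bovine, a difference of -58.5 ± 3.13 points (adjusted p = 7.05e-08). Jup (plakoglobin), which links cadherins to filaments, stood at 44.9 and 45.3 and 94.2, 94.9 and 97.1, a difference of -50.3 ± 1.64 points (adjusted p = 2.27e-09). Dsg2, the desmosomal cadherin, stood at 24.8 and 29.3 and 86.8, 88.3 and 92.4, a difference of -61.9 ± 3.14 points (adjusted p = 4.83e-08). Bovine samples of these 3 genes were all at 86.8 or above and mouse samples all at 49.4 or below. Cldn7 and Cxadr, a claudin and an adhesion receptor, were the 2 junction members that ranked higher in mouse. Their means were 91.1 and 69.5 in mouse and 46.6 and 29.9 in bovine. The call of Cldn7 did not pass without either mouse sample (adjusted p up to 0.0605).

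Among 18 members of apical polarity and the ezrin family 8 ranked higher in bovine, 2 higher in mouse and 8 were not called. Msn (moesin), which ties the membrane to cortical actin, stood at 6.82 and 6.76 in mouse and 91.6, 95.8 and 97.7 in bovine, a difference of -88.7 ± 3.18 points (adjusted p = 3.76e-09). Its relatives Ezr and Rdx were less far apart, with means of 72.6 and 67.8 in mouse and 99.7 and 86.8 in bovine. Slc9a3r1 (Nherf1), a scaffold that binds ezrin, stood at 53.3 and 63.3 and 96.5, 97.02 and 98.4, a difference of -38.8 ± 2.04 points (adjusted p = 6.42e-08). Mouse samples of Msn were near the bottom of the order, and those of Slc9a3r1 near its middle.

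Of 7 members for the blastocoel pump and water channels 4 ranked higher in bovine and 1 higher in mouse. Slc4a2, an anion exchanger, stood at 11.6 and 19.1 in mouse and 40.5, 53.3 and 70.5 in bovine, a difference of -38.6 ± 7.80 points (adjusted p = 0.0018). Slc12a2, a sodium, potassium and chloride cotransporter, ran the opposite way at 72.7 and 77.6 and 5.21, 22.1 and 33.2, a difference of 52.9 ± 7.32 points (adjusted p = 1.38e-04). Neither gene overlapped between groups. Aqp3, an aquaglyceroporin of the outer cells, overlapped at 69.6 and 76.4 and 73.8, 79.2 and 81.5 and was not called (adjusted p = 0.13), while per transcript length its difference of -4.52 points was (adjusted p = 0.0129).

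Of 20 members for glucose transport, glycolysis and the pentose phosphate path 14 ranked higher in bovine, 10 of them in every fit that left out 1 sample, 1 ranked higher in mouse and 5 were not called. Median percentiles were 73.7 in mouse and 92.4 in bovine, a median difference of -16.9 points. Pgk1, which makes ATP in glycolysis, stood at 26.01 and 30.6 in mouse and 85.3, 88.4 and 90.1 in bovine, a difference of -59.9 ± 3.12 points (adjusted p = 5.87e-08). Ldha, which turns pyruvate into lactate, stood at 45.5 and 36.7 and 87.4, 92.04 and 94.4, a difference of -50.6 ± 2.81 points (adjusted p = 9.89e-08). Pfkl, a subunit of the enzyme that commits glucose to glycolysis, stood at 9.50 and 11.9 and 40.7, 50.2 and 70.1, a difference of -42.6 ± 8.98 points (adjusted p = 0.00235). All 3 had both mouse samples under every bovine sample.

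Gapdh and Ldhb, also enzymes of this path, were under the filter in mouse. Gapdh itself had 4.47 and 6.32 normalized reads in the mouse samples and 1471, 1749 and 2036 in the bovine samples, and Ldhb had 3.35 and 8.85 and 508.5, 753.8 and 859.3. A BLAST search of mouse transcripts of the GENCODE M21 annotation found 64 other annotated genes that match at least 20% of the Gapdh transcript, 38 of them at 100% identity. Copies were also found for Pgk1 (4), Ldha (2) and Ldhb (1). How reads that match several genes were counted is not given in the sources used here, and the part of such copies in these ranks was not tested.

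Lipid and sterol genes gave calls in both directions. For fatty acid and lipid droplet genes 6 of 25 members ranked higher in mouse and 7 higher in bovine, near the 24.6% and 25.1% of all members. Acsl3 and Acsl4, which activate long-chain fatty acids, ranked higher in bovine: Acsl3 stood at 51.6 and 57.8 in mouse and 96.1, 96.7 and 97.6 in bovine, a difference of -42.1 ± 1.61 points (adjusted p = 5.57e-09). Acsl4 stood at 39.1 and 50.9 and 82.2, 87.3 and 94.9, a difference of -42.2 ± 4.06 points (adjusted p = 8.85e-06). Elovl1, an elongase of very long fatty acids, stood at 31.4 and 32.9 and 79.7, 83.1 and 86.6, a difference of -50.7 ± 3.74 points (adjusted p = 1.02e-06). None of the 3 overlapped. The 6 members higher in mouse were the mitochondrial oxidation enzymes Acaa2, Acadm, Acadvl, Hadh and Hadha, and Dgat1, which completes triglyceride synthesis. Their mean percentiles ran from 49.4 (Dgat1) to 94.3 (Acadm) in mouse and from 14.2 (Dgat1) to 67.7 (Acadm) in bovine. Of these 6 calls that of Hadh alone held in every fit that left out 1 sample. Mouse replicates 1 and 2 decided the calls of Acaa2, Acadm, Acadvl and Hadha, mouse replicate 1 that of Dgat1, and bovine replicates 2 and 3 also that of Acaa2, with adjusted p up to 0.229, 0.0684, 0.126, 0.167 and 0.0627 without one of them.

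In cholesterol synthesis 6 of 22 members ranked higher in mouse and 9 higher in bovine, with a median difference of 6.13 points that turned to -20.7 points when members needed a mean of 50. Idi1, an isomerase of the isoprenoid path, stood at 19.9 and 18.1 in mouse and 56.6, 83.7 and 89.5 in bovine, a difference of -60.8 ± 7.98 points (adjusted p = 9.47e-05). Insig1, which holds back sterol synthesis, stood at 84.7 and 90.3 and 29.99, 41.5 and 55.2, a difference of 46.3 ± 7.77 points (adjusted p = 5.31e-04). Idi1 was thus lower in both mouse samples than in any bovine sample, and Insig1 was higher. Idi1 is uncertain because the mouse pseudogene Gm13502 matches 22.6% of its transcript at 100% identity.

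The 13 protein genes of the mitochondrial genome fell into 2 sets in mouse but not in bovine. These genes are cut from long transcripts, so short and long ones start from shared precursors. In bovine the medians of all 13 were at 95.9 or above. In mouse CYTB, ND1, ND2, ND4, ND5, ND6 and COX1 were near the top, the lowest of them ND6 at 98.01 and 98.6. The rest, ATP6, ATP8, COX2, COX3, ND3 and ND4L, were between 4.05 and 67.2. In total 7 members ranked higher in bovine, the 6 of the second set and ND6, and none ranked higher in mouse. ND3, a subunit of complex I, stood at 4.05 and 6.76 in mouse and 98.99, 99.3 and 99.6 in bovine, a difference of -93.9 ± 2.51 points (adjusted p = 4.86e-10). ATP8, a small subunit of ATP synthase, stood at 8.32 and 11.3 and 85.9, 95.9 and 99.1, a difference of -85.1 ± 3.88 points (adjusted p = 1.99e-08). ND4L, another complex I subunit, stood at 37.96 and 25.4 and 89.8, 97.3 and 98.7, a difference of -64.8 ± 3.37 points (adjusted p = 5.76e-08). Mouse samples of these 3 genes were all below every bovine sample.

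The same BLAST search placed near-complete nuclear copies of 5 mitochondrial genes in the mouse annotation, that is, copies over at least 98% of the transcript at more than 99% identity. They were Gm10925 for ATP6, Gm28661 for COX2, Gm28437 for COX3, Gm28438 for ND3 and Gm10222 for ND4L. All 5 of these genes ranked higher in bovine, with a median difference of -57.5 points, and of the other 8 mitochondrial genes 2 did, with a median of -0.484. ATP8 is among those 8, since no copy was found for it among annotated transcripts. Sequence outside annotated transcripts was not searched, so an unannotated copy of ATP8 would have been missed. Matches on the opposite strand, or only in a shorter transcript of another gene, would have been missed as well. COX1, ND2, ND4 and ND5 have copies that are shorter or less alike. That of ND4, Gm28439, covers 63.6% of its transcript at 100% identity. Because the copies bear on how reads could be assigned, the aligned bases are shown for 2 pairs on GRCm38, the first 32 bases of the mitochondrial ND3 gene (mt-Nd3) and bases 362 to 421 of the COX3 gene (mt-Co3), each beside its nuclear copy, 5′ to 3′. Capitals mark the only base that differs over the 345 aligned bases of mt-Nd3 and Gm28438, T3C, counted from 1 at the first base of mt-Nd3. Over 783 aligned bases mt-Co3 and Gm28437 had 0 differences.
mt-Nd3, chrM:9459-9490, plus strand: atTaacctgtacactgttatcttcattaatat
Gm28438, chr1:24613088-24613119, minus strand: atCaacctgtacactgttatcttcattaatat
mt-Co3, chrM:8968-9027, plus strand: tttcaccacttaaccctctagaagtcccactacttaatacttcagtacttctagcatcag
Gm28437, chr1:24613551-24613610, minus strand: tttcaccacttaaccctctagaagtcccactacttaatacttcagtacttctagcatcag
Whether reads that match both members of a pair were dropped, split or assigned to one gene is not given in the sources used here, and their part in the mouse ranks was not tested. Copies in the bovine genome were not analysed here.

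**Figure D3:**
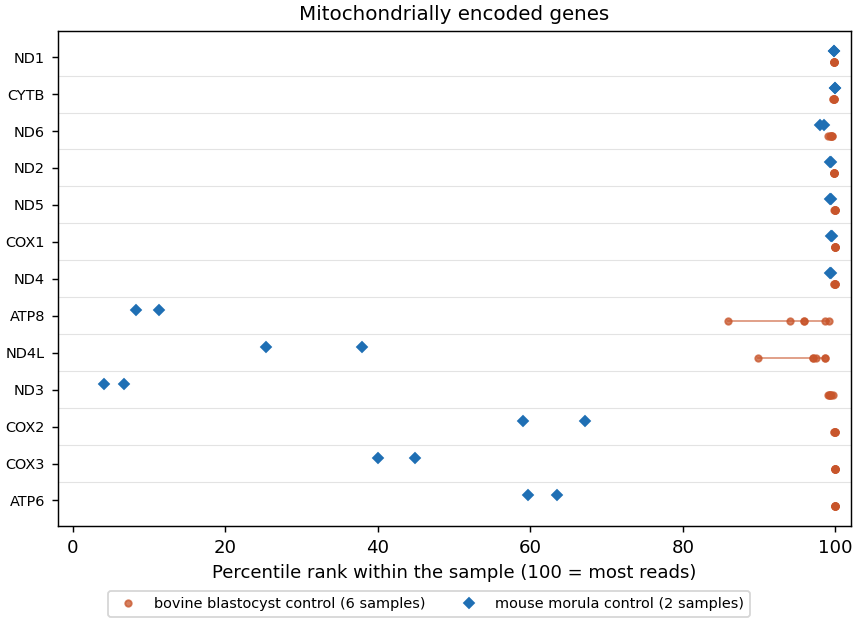
Percentile rank within the sample (horizontal axis) of the 13 protein genes of the mitochondrial genome, with blue diamonds for the 2 mouse morula controls and orange points for the 6 bovine blastocyst controls. Bovine values lie at or above 85.9, while in mouse 6 genes lie between 4.05 and 67.2.

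Of 63 nuclear members of oxidative phosphorylation 28 ranked higher in bovine, 24 of them in every fit that left out 1 sample, and 8 ranked higher in mouse, with a median difference of -3.33 points. Sdhd, the membrane anchor of complex II, stood at 47.7 and 47.99 in mouse and 91.7, 95.96 and 96.2 in bovine, a difference of -47.4 ± 1.72 points (adjusted p = 4.02e-09). Uqcc3, an assembly factor of complex III, stood at 87.2 and 83.4 and 28.3, 45.6 and 59.2, a difference of 41.4 ± 8.48 points (adjusted p = 0.00194). Sdhd was below the bovine range in both mouse samples and Uqcc3 above it. Of 77 mitochondrial ribosomal proteins 23 ranked higher in mouse and 9 higher in bovine, beside 24.6% and 25.1% of all members, and 8 and 4 held in every fit that left out 1 sample. Per transcript length 19 ranked higher in mouse and 15 higher in bovine. The 3 largest differences were Mrpl40, Mrpl36 and Mrpl33, subunits of the large mitochondrial ribosome. Mrpl40 stood at 89.7 and 89.03 in mouse and 3.91, 20.1 and 39.7 in bovine, a difference of 68.04 ± 8.99 points (adjusted p = 9.93e-05). Mrpl36 and Mrpl33 differed by 67.7 and 67.5 points, with mouse samples above every bovine sample for all 3.

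Of 78 cytosolic ribosomal proteins 64 were not called, 9 ranked higher in mouse and 5 higher in bovine, and the median percentiles were 98.8 and 98.4, near the end of the scale, where differences in rank are small. On reads edgeR called 46 of the 78 higher in mouse and 4 higher in bovine. Rps9, of the small subunit, stood at 99.3 and 99.4 in mouse and 84.3, 91.2 and 93.5 in bovine, a difference of 8.83 ± 1.88 points (adjusted p = 0.00253). Rpl22l1, a paralog of Rpl22, stood at 68.1 and 65.4 and 86.5, 94.4 and 95.6, a difference of -26.6 ± 2.23 points (adjusted p = 3.12e-06). Rpl21 stood at 91.1 and 85.8 and 98.5, 98.8 and 99.2, a difference of -10.4 ± 1.04 points (adjusted p = 1.17e-05), and is uncertain because 58 other mouse genes match its transcript. Rps9 was above the bovine range in both mouse samples, and the other 2 were below it. The mouse pseudogene Gm5905 matches 43.6% of the Rps9 transcript at 97.3% identity, so Rps9 is uncertain too.

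Of 36 proteasome subunits 26 ranked higher in mouse, 15 of them in every fit that left out 1 sample, 1 ranked higher in bovine and 9 were not called. Their median percentiles were 95.9 in mouse and 89.4 in bovine. Psmd3 and Psmd4, subunits of the regulatory cap, showed the widest gaps. Psmd3 stood at 92.9 and 93.8 in mouse and 33.6, 50.03 and 60.1 in bovine, a difference of 43.9 ± 7.28 points (adjusted p = 4.86e-04). Psmd4, a ubiquitin receptor of the cap, stood at 96.8 and 96.8 and 43.3, 54.2 and 65.7, a difference of 42.1 ± 6.41 points (adjusted p = 2.70e-04). Psmd10 (gankyrin), an assembly chaperone, was the 1 that ranked higher in bovine, at 38.8 and 39.4 against 71.01, 77.2 and 82.6, a difference of -37.5 ± 4.58 points (adjusted p = 5.66e-05). No groups overlapped for these 3 genes. Of 52 translation initiation and elongation factors 24 ranked higher in mouse and 7 higher in bovine, and 13 and 6 held in every fit that left out 1 sample. Eif2d, which delivers initiator tRNA, stood at 91.5 and 91.97 in mouse and 33.5, 48.2 and 50.5 in bovine, a difference of 46.1 ± 6.32 points (adjusted p = 1.29e-04).

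Among 34 aminoacyl-tRNA synthetases 4 ranked higher in mouse and 11 higher in bovine, with a median difference of 0.126 points. Lars2 (chromosome 9, 123366927 to 123462666, plus strand, GRCm38), the leucine synthetase of mitochondria, ranked first among all members in both mouse samples, at 99.99 and 99.99, and stood at 2.66, 8.23 and 13.7 in bovine. Its difference of 91.8 ± 5.52 points (adjusted p = 1.8e-07) was the largest in the mouse direction. The copy search listed only matches on the same strand over at least 20% of a transcript. Reads from a shorter stretch shared with another gene would not have been seen, and their part in the Lars2 rank was not tested. Iars2, the isoleucine enzyme of mitochondria, ran the other way at 38.5 and 36.7 and 71.2, 77.2 and 85.1, a difference of -39.7 ± 4.98 points (adjusted p = 6.87e-05). Of 81 core splicing factors 17 ranked higher in mouse and 29 higher in bovine. Hnrnph3, an hnRNP protein, stood at 9.50 and 14.1 in mouse and 83.5, 88.7 and 90.6 in bovine, a difference of -76.01 ± 4.04 points (adjusted p = 6.88e-08). Snrnp70, a protein of the U1 particle, stood at 65.1 and 68.5 and 4.41, 14.1 and 24.6, a difference of 52.1 ± 6.31 points (adjusted p = 5.22e-05). The mouse samples were below every bovine sample for Hnrnph3 and above for Snrnp70.

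Polycomb and trithorax genes ranked higher in the morulae more often than the reverse. Of 34 polycomb and trithorax members 17 ranked higher in mouse, 9 of them in every fit that left out 1 sample, 4 ranked higher in bovine and 13 were not called, with a median difference of 9.91 points. Ezh2, which methylates histone H3 in polycomb complexes, stood at 86.1 and 84.1 in mouse and 34.3, 49.4 and 59.3 in bovine, a difference of 36.6 ± 7.35 points (adjusted p = 0.00173). Ash2l, a core subunit of complexes that methylate active promoters, stood at 88.9 and 88.1 and 24.6, 50.02 and 62.7, a difference of 41.1 ± 8.67 points (adjusted p = 0.00235). Kdm6b, which removes the polycomb mark, stood at 85.3 and 89.6 and 1.66, 9.01 and 60.1, a difference of 71.2 ± 13.02 points (adjusted p = 9.56e-04). All 3 were higher in both mouse samples than in any bovine sample, and bovine replicate 6 held the highest Kdm6b rank of its group.

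DNA methylation genes differed by paralog. Of 20 members 6 ranked higher in each species and 8 were not called, beside 24.6% of all members higher in mouse and 25.1% higher in bovine. Dnmt1, the maintenance methyltransferase, overlapped at 46.4 and 55.7 in mouse and 30.6, 48.1 and 56.6 in bovine and was not called (adjusted p = 0.601). Uhrf1, which brings Dnmt1 to replicated DNA, stood at 51.1 and 67.7 and 0.596, 5.04 and 17.3, a difference of 52.5 ± 6.17 points (adjusted p = 4.21e-05). Dnmt3b, a de novo methyltransferase, stood at 64.8 and 69.1 and 80.5, 88.2 and 92.5, a difference of -20.97 ± 2.94 points (adjusted p = 1.51e-04). Tet1 and Tet2 oxidize methylcytosine. Tet1 stood at 68.8 and 66.8 in mouse and 94.4, 96.5 and 97.7 in bovine, a difference of -28.5 ± 1.13 points (adjusted p = 7.44e-09). Tet2 stood at 84.6 and 88.3 and 15.6, 30.6 and 44.4, a difference of 56.8 ± 7.96 points (adjusted p = 1.51e-04). The paralogs thus went opposite ways, Tet1 below the bovine range in both mouse samples and Tet2 above it. For Uhrf1 the mouse pseudogene Gm5648 matches 44.3% of its transcript at 98.3% identity, so its rank is uncertain.

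Histone genes are uncertain because clustered copies share sequence and most lack a poly(A) tail. Of 11 members 6 ranked higher in mouse and 1 higher in bovine. H2afy (macroH2A), a variant with its own intron-containing gene, stood at 85.05 and 86.2 in mouse and 28.6, 42.2 and 58.9 in bovine, a difference of 42.003 ± 8.32 points (adjusted p = 0.00159). Hist1h1e, a linker histone, ran the other way at 1.28 and 4.05 and 28.9, 52.7 and 69.4, a difference of -47.7 ± 9.59 points (adjusted p = 0.00175). Of 7 imprinted members 5 were not called. Cd81, a tetraspanin, stood at 7.76 and 1.40 in mouse and 80.8, 86.8 and 95.1 in bovine, a difference of -82.9 ± 5.12 points (adjusted p = 2.33e-07). Igf2r, which clears insulin-like growth factor 2, stood at 85.1 and 87.7 and 8.50, 40.7 and 64.3. Its difference of 44.4 ± 12.3 points (adjusted p = 0.0113) was lost without either mouse sample (adjusted p up to 0.0916).

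Of 20 p53 regulators and targets 4 ranked higher in mouse, 6 higher in bovine and 10 were not called, with a median difference of -5.99 points. Bax, a pore-forming protein of mitochondrial apoptosis, stood at 91.3 and 90.5 in mouse and 1.02, 6.81 and 15.1 in bovine, a difference of 82.8 ± 5.63 points (adjusted p = 5.05e-07). Cdkn1a (p21), an inhibitor of cyclin-dependent kinases, stood at 95.1 and 95.6 and 2.78, 20.5 and 67.3, a difference of 67.3 ± 13.9 points (adjusted p = 0.00204). Btg2, an antiproliferative p53 target, stood at 69.6 and 66.01 and 1.199, 4.75 and 16.9, a difference of 61.5 ± 5.29 points (adjusted p = 3.61e-06). All 3 were higher in both mouse samples than in any bovine sample. Bcl2l1 (Bcl-xL), which blocks Bax, was lower in mouse at 26.9 and 28.5 against 43.3, 62.1 and 67.7, a difference of -32.2 ± 7.25 points (adjusted p = 0.00352). In the wider list of 22 apoptosis members 5 ranked higher in each species and 12 were not called. Over all members 24.6% ranked higher in mouse and 25.1% higher in bovine.

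Of 41 cell cycle members 14 ranked higher in mouse, 10 higher in bovine and 17 were not called. Ccnd3, a D-type cyclin, stood at 79.3 and 82.5 in mouse and 9.72, 23.98 and 57.2 in bovine, a difference of 54.3 ± 10.3 points (adjusted p = 0.00122). Kif20a, a kinesin of cytokinesis, stood at 29.6 and 23.2 and 72.3, 90.8 and 93.8, a difference of -61.3 ± 5.50 points (adjusted p = 5.17e-06). Stress pathways were mixed. Of 27 members of the unfolded protein and integrated stress responses 12 ranked higher in bovine and 4 higher in mouse, 7 and 2 of them in every fit that left out 1 sample. Asns (asparagine synthetase), a target of Atf4, stood at 44.9 and 37.7 in mouse and 87.3, 93.99 and 98.3 in bovine, a difference of -52.03 ± 3.10 points (adjusted p = 1.7e-07). Sel1l, which serves degradation of endoplasmic reticulum proteins, stood at 22.6 and 34.5 and 52.8, 66.2 and 76.03, a difference of -37.5 ± 7.66 points (adjusted p = 0.00192). Mouse samples of Kif20a, Asns and Sel1l were below every bovine sample, and those of Ccnd3 above.

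Of 25 antioxidant and glutathione members 6 ranked higher in mouse and 7 higher in bovine, and 4 and 6 held in every fit that left out 1 sample. Over all members the shares called were 24.6% and 25.1%. The 3 antioxidant and glutathione members with the largest differences without overlap were all higher in mouse. Gsto1, an omega-class glutathione transferase, stood at 97.01 and 97.5 in mouse and 0.234, 5.60 and 28.3 in bovine, a difference of 88.2 ± 7.37 points (adjusted p = 3.04e-06). Its lowest bovine value, in replicate 2, was 1.54 normalized reads, the level of 1 read in that sample. Gss and Gclm make glutathione. Gss stood at 74.8 and 77.4 and 1.78, 13.8 and 41.01, a difference of 60.1 ± 9.20 points (adjusted p = 2.76e-04). Gclm stood at 60.6 and 67.2 and 2.99, 4.61 and 15.6, a difference of 57.6 ± 5.11 points (adjusted p = 4.69e-06). These 3 were above the bovine range in both mouse samples. Of 27 heat shock members 9 ranked higher in mouse and 6 higher in bovine, 3 and 5 of them in every fit that left out 1 sample. Hspb1 (Hsp27), a small chaperone, stood at 63.6 and 71.95 in mouse and 99.1, 99.7 and 99.8 in bovine, a difference of -31.8 ± 1.62 points (adjusted p = 4.89e-08), and is uncertain because the processed pseudogene Hsp25-ps1 matches 68.2% of its transcript at 99.8% identity.

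In FGF and ERK signalling 5 of 20 members ranked higher in mouse and 4 higher in bovine, beside 24.6% and 25.1% of all members. Hras, a small GTPase of the pathway, stood at 57.7 and 57.8 in mouse and 0.419, 2.87 and 21.4 in bovine, a difference of 50.3 ± 6.47 points (adjusted p = 8.13e-05). Spry2, a feedback inhibitor, stood at 74.3 and 76.2 and 3.76, 14.7 and 46.9, a difference of 55.1 ± 9.68 points (adjusted p = 7.29e-04). The mouse samples of both were above the bovine range. In TGF-beta, Nodal and BMP signalling 10 of 14 members were not called. The receptor Tgfbr1 stood at 21.7 and 21.4 in mouse and 57.8, 65.7 and 72.6 in bovine, a difference of -44.1 ± 6.22 points (adjusted p = 1.57e-04). Smad1, a transducer of BMP signals, stood at 4.05 and 4.05 and 27.2, 49.3 and 61.6, a difference of -42.7 ± 9.42 points (adjusted p = 0.00309).

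In Wnt signalling 9 of 14 members were not called, 4 ranked higher in bovine and 1 higher in mouse. Apc, a scaffold that promotes degradation of beta-catenin, stood at 29.9 and 37.03 in mouse and 51.98, 72.6 and 83.1 in bovine, a difference of -37.7 ± 7.63 points (adjusted p = 0.00182). Gsk3b, the kinase of the same complex, stood at 86.3 and 84.4 and 55.2, 58.4 and 72.7. Its difference of 23.001 ± 5.63 points (adjusted p = 0.00574) was lost without either mouse sample (adjusted p up to 0.0843). In LIF and STAT signalling 3 of 12 members ranked higher in each species, near the 24.6% and 25.1% of all members. Ptpn11 (Shp2), a phosphatase that links receptors to Ras, stood at 53.97 and 57.3 in mouse and 77.3, 83.7 and 87.6 in bovine, a difference of -27.5 ± 3.38 points (adjusted p = 5.95e-05). Of 8 interferon response members 5 were not called. B2m, the light chain of class I antigen presentation, stood at 38.2 and 26.3 and 83.8, 85.6 and 89.8, a difference of -54.3 ± 3.84 points (adjusted p = 7.11e-07). Both mouse samples of Apc, Ptpn11 and B2m were below every bovine sample.

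**Figure D4:**
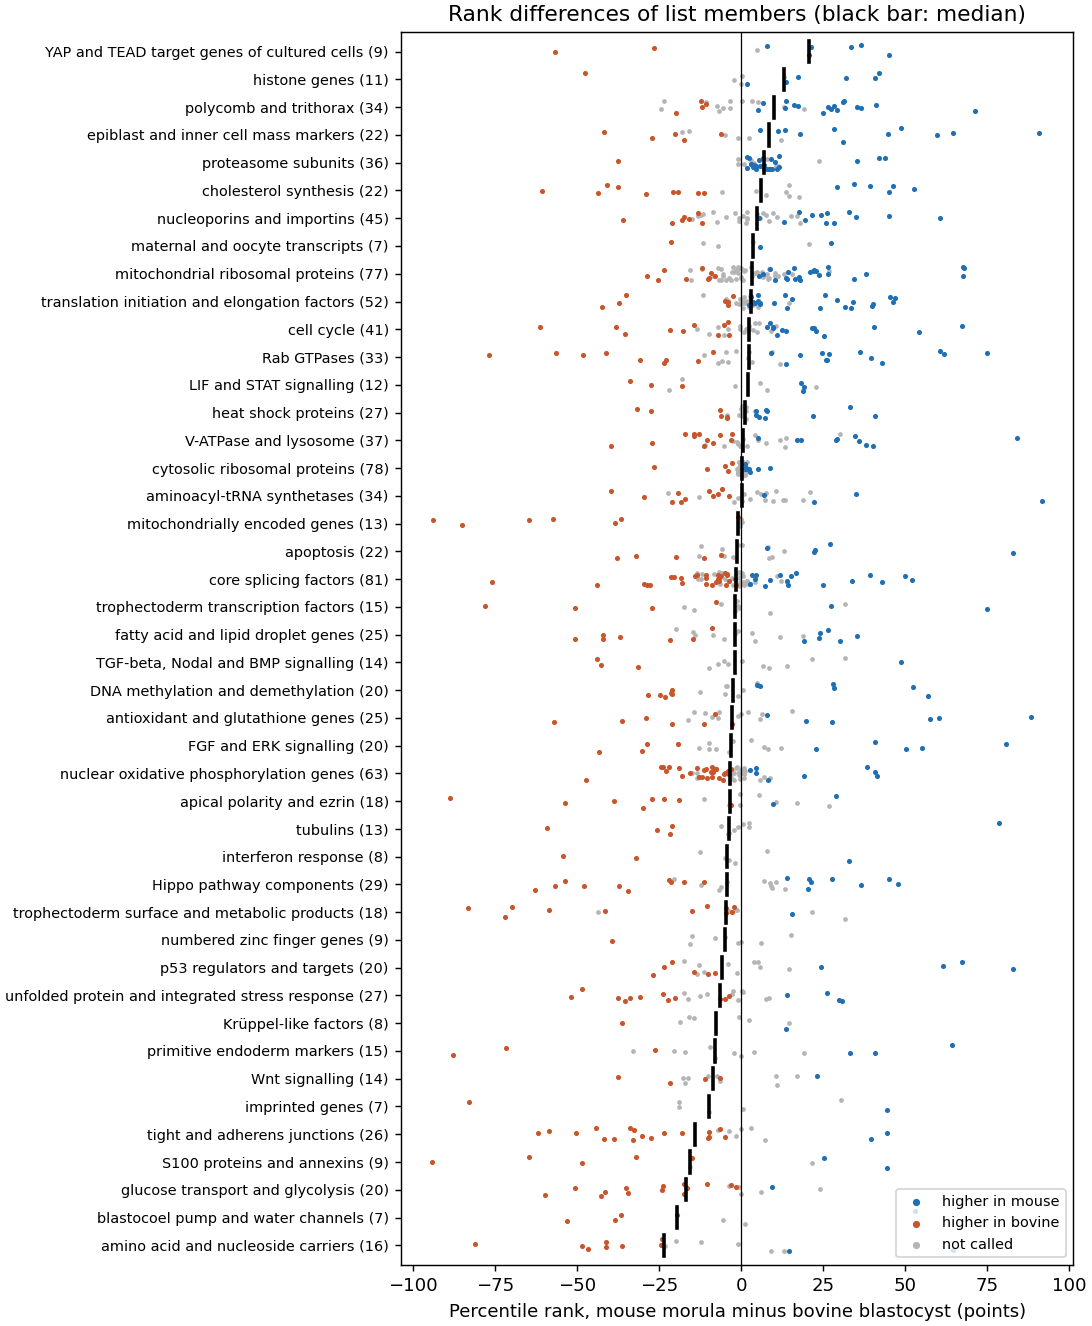
Difference in mean percentile rank (mouse morula minus bovine blastocyst, points) of every member of each gene list with at least 7 members, ordered by the median, which is the black bar; the number of members is in parentheses. Blue and orange points passed an adjusted p of 0.05, and medians run from 20.6 points for genes induced by YAP and TEAD factors to -23.7 points for amino acid and nucleoside carriers.

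The genes with the widest gaps over the whole order were in part from lists above and in part from none. In the mouse direction the next after Lars2 and Fbxo15 outside those lists were Hdgf and Crip2. Hdgf, a nuclear growth factor, stood at 98.2 and 98.4 in mouse and 3.63, 10.8 and 19.4 in bovine, a difference of 87.3 ± 5.63 points (adjusted p = 3.28e-07). Crip2, a LIM domain protein, stood at 97.7 and 97.7 and 2.66, 9.11 and 27.8, a difference of 86.4 ± 7.12 points (adjusted p = 2.68e-06). Atg4b, a protease of autophagy, stood at 94.3 and 95.1 and 0.0355, 7.57 and 17.3, a difference of 86.3 ± 6.29 points (adjusted p = 9.31e-07). Its lowest bovine value, in replicate 3, was 1.46 normalized reads, the level of 1 read in that sample. Mouse samples of these genes were all at 94.3 or above and no bovine sample passed 27.8. Grn (progranulin), a lysosomal protein precursor, Sun1, of the nuclear envelope, Csnk1e, a casein kinase, and Serinc3, a membrane protein, came next, with differences of 84.1, 82.8, 81.4 and 80.9 points. In normalized reads of its own table Hdgf had 4439 and 4523 in mouse and 9.13, 15.5 and 21.5 in bovine.

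In the bovine direction the widest gap belonged to S100a14, a small calcium-binding protein of epithelia. It stood at 1.28 and 6.10 in mouse and 97.2, 97.8 and 98.9 in bovine, a difference of -94.3 ± 2.84 points (adjusted p = 1.25e-09). In normalized reads of its own table it had 10.1 and 20.2 in mouse and 756.7, 922.5 and 1449.7 in bovine. Arl10, a small GTPase, stood at 4.05 and 4.68 and 87.7, 91.99 and 94.9, a difference of -87.1 ± 3.84 points (adjusted p = 1.47e-08). Dhrs11, a short-chain dehydrogenase, stood at 4.76 and 6.10 and 86.6, 91.03 and 93.1, a difference of -85.2 ± 3.82 points (adjusted p = 1.72e-08). Every bovine sample of these 3 was at 86.6 or above and every mouse sample at 6.10 or below. Osbpl1a, which binds sterols, Pls1, an actin bundler of microvilli, Acss1, an acetate-activating enzyme of mitochondria, and Hmga1, a chromatin protein, differed by -84.4, -83.7, -83.6 and -83.3 points. Hmga1 is uncertain, since the mouse gene Hmga1b matches 79.8% of its transcript at 100% identity.

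**Figure D5:**
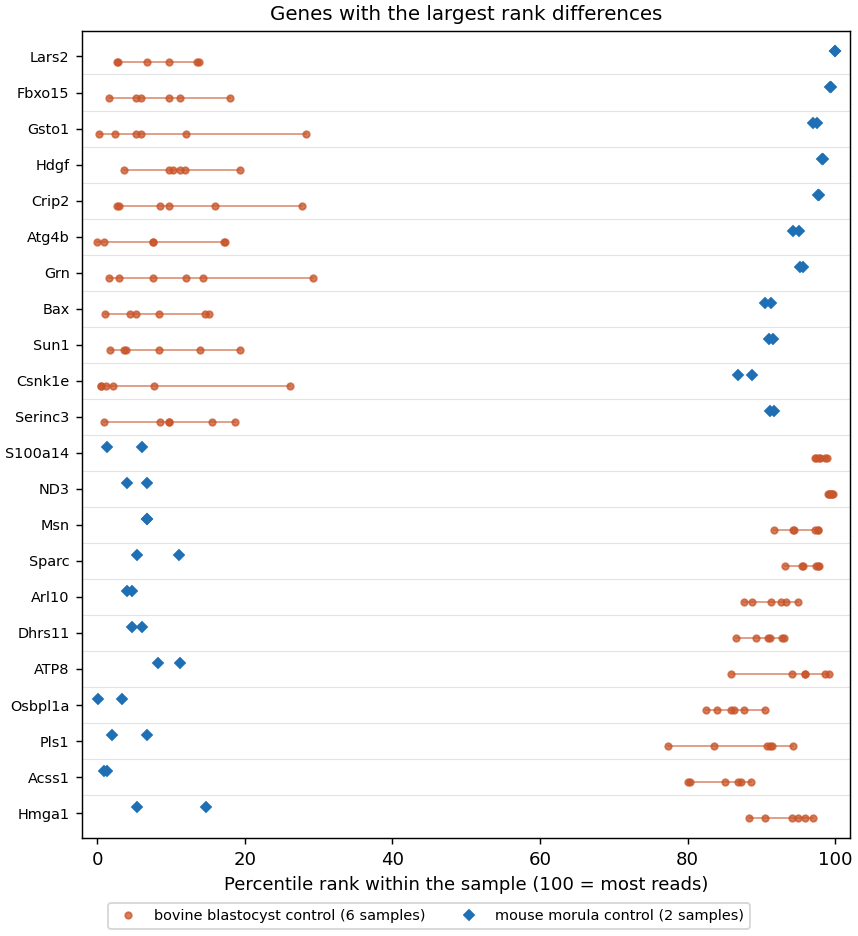
Percentile rank within the sample (horizontal axis) of the 11 genes with the largest difference in each direction, with blue diamonds for the 2 mouse morula controls and orange points for the 6 bovine blastocyst controls. No gene shows an overlap between species, which was a condition of the choice. Lars2 and S100a14 have the largest difference in the mouse and the bovine direction.

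Genes that reached a mean of 10 in one species only are given as reads within their own table. Among those of the mouse side, Gja1 (connexin 43), the main gap junction protein of the mouse embryo, had 3684 and 3310.1 normalized reads in mouse and 0, 1.97 and 7.29 in bovine. Fgfr2, an FGF receptor of trophectoderm, had 258.1 and 217.6 and 3.47, 8.39 and 12.2. Id3, which blocks helix-loop-helix factors, had 474.9 and 412.3 and 0, 0.867 and 3.32. Ajuba, a scaffold that restrains Lats kinases, had 108.4 and 115.1 and 2.92, 4.59 and 11.8. No bovine sample passed 12.2 normalized reads for any of the 4, where 3 reads correspond to 1.71 to 4.62 normalized reads. On the bovine side Plac8, a gene of blastocyst trophectoderm, had 3.35 and 3.79 normalized reads in mouse and 816.5, 1048 and 1559 in bovine. Ptgs2, which starts prostaglandin synthesis, had 2.23 and 0 and 291.8, 642.4 and 1236. Tead3, another TEAD factor, had 3.35 and 1.26 and 26.2, 55.4 and 72.3, and Kit, a receptor kinase, had 3.35 and 0 and 118.5, 208.9 and 390.6. In mouse these 4 were at or under the level of 3 reads, 3.35 to 3.79 normalized reads.

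Maternal transcripts and the first embryonic ones were thinly covered. Of the listed oocyte and maternal genes 7 were members, of which 2 ranked higher in mouse and 1 higher in bovine. Spin1, a maternal chromatin reader, stood at 60.1 and 59.5 in mouse and 76.01, 81.7 and 84.7 in bovine, a difference of -21.5 ± 2.96 points (adjusted p = 1.33e-04). Ooep, of the subcortical maternal complex, stood at 49.5 and 49.8 and 1.66, 17.4 and 41.98. Its difference of 27.4 ± 9.69 points (adjusted p = 0.0351) was lost without either mouse sample, without bovine replicates 1, 4 or 5 (adjusted p up to 0.158) and per transcript length (adjusted p = 0.175). A shared symbol does not make 2 genes the same gene. PAG1 is a pregnancy-associated glycoprotein in cattle and a membrane adaptor protein in mouse, and it was a member through its name alone. Numbered zinc finger genes shared few names. Of 589 such names 314 were found in mouse only and 260 in bovine only, and 9 were members.

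At the threshold of 10 normalized reads the members nearest to it had bovine means such as 10.0014 (Gipc1) and 10.0044 (Tmem39b), and genes just outside it had means such as 9.99957 (Fbrs) and 9.98782 (Tmem18). Transcript length was related to the differences. Over 10 classes of equal size by mouse transcript length the median difference was 2.48 points in the shortest class and -8.28 points in the longest. Divided by mouse transcript length, the species means correlated at 0.719 over 7001 members with a length, against 0.585 over all members by reads. The same mouse length divided both species, and a shared divisor can by itself raise a correlation. The 2 values therefore cannot show whether the species were more alike per length.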

How the data were processed

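RNA of 2 control mouse and 6 control bovine embryo samples was analysed, with groups and replicate numbers from the sample titles. Trimmomatic, HISAT2, featureCounts and DESeq2 are listed in the submitters' processing notes without versions, as are the builds mm10 and ARS-UCD1.2. Annotation, strand setting and the handling of reads with several matches are not given there. In each deposited table the signal values are read counts per gene which the authors scaled by 1 size factor for each sample, as the file headers and values show. Whole reads were recovered from them (100% of values within 0.05 of a whole number), and edgeR 4.0.16 (quasi-likelihood, TMM) on these reads, an alternative, called 4189 genes. In mouse 3 reads, the limit that a count of 0 allows, equal 3.35 to 3.79 normalized reads, and in bovine 1.71 to 4.62, for counting error only.

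Symbols in the form of calendar dates (19 in mouse, 20 in bovine) and 2 bovine rows with a repeated symbol were left out. Percentile ranks within each sample, ties averaged, were fitted with limma 3.58.1 in R 4.3.3 (trend, two-sided, no covariate), with Benjamini-Hochberg adjustment over 7045 genes and a threshold of 0.05. Every adjusted p comes from limma unless edgeR is named. On simulated data with 200 genes changed 4-fold, limma on ranks called 36.5% of them, all in the right direction, and 0.0730% of unchanged genes. Most changes of that size were thus missed in the simulation, and edgeR called 96.5% and 0.146%. The simulation gave every sample the same dispersion and, apart from the changed genes, the same mean profile. In the data the bovine samples spread more widely, so these rates may not hold there.

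Alternatives were normal scores, quantile-normalized log2(value + 1) and log2(value + 5), no filter, a mean of 50, values per mouse transcript length (GENCODE M21), robust limma, a replicate block, edgeR and leaving out each sample. Copies were sought with blastn for 7014 members, on the same strand and among the longest GENCODE M21 transcript of each other gene. Of 234 members with a copy (95% identity over 50% of the transcript) 55 ranked higher in mouse and 60 higher in bovine. These counts lie near the 24.6% and 25.1% of all members. Named genes were the core lineage, Hippo and junction genes, in each list at most 3 called members without overlap that differed most, the 12 genes with the largest difference in each direction, the 8 highest in both species and those at the filter's edge. Other list members named to describe a list were chosen after their values were seen. Some genes that the rule takes are not reported here. The members and lists were chosen with earlier results of these data known.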

Additional observations from a re-analysis of the deposited data

Results flagged for a closer look

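Among the 169 named genes, 20 had 1 bovine sample whose gap to the nearest other sample, relative to the range of the 6, was above Dixon's 95% critical value. Chance flags about 1 in 20 groups. Of the 20 genes 7 were flagged for replicate 6, 5 for replicate 1, 3 each for replicates 2 and 3, and 1 each for replicates 4 and 5.

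Replicate 6, the sample with the largest 18S rRNA share, was the lowest for ND4L at a percentile of 89.8, for Ranbp6 at 15.4, for Rpl22l1 at 86.5 and for Sdhd at 91.7. The same sample was the highest for Btg2 at 16.9, for Csnk1e at 26.2 and for Kdm6b at 60.1. For Kdm6b the next bovine sample stood at 13.9. The part of the 18S rRNA share in these ranks was not tested.

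Replicate 1 was the highest for the cyclin Ccnd3 at 57.2, for Gclm at 15.6 and for Xpo6 at 24.0, and the lowest for the fibronectin gene Fn1 at 99.01 and for the amino acid carrier Slc38a2 at 87.2. Replicate 2 was the highest for Spp1 at 46.7, where the next sample stood at 7.72, and the lowest for the chaperone Hspb1 at 99.1 and for Rps9 at 84.3. Replicate 3 was the lowest for Bcl2l1 at 43.3, for Cldn6 at 99.3 and for Pgk1 at 85.3. Replicate 4 was the lowest for Taok3 at 59.7 and replicate 5 for Tfap2c at 87.5. None of these samples reached the mouse values of its gene. For genes named from a list or for the largest differences this was fixed in advance, since they were chosen without overlap.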

How the results depend on the processing

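A mean of at least 50 in both species left 3397 genes, of which 1583 were called, 784 higher in mouse and 799 higher in bovine. Leaving out 1 sample gave 2055 to 3871 calls, 903 to 1933 higher in mouse and 1152 to 1938 higher in bovine. The lowest came from the fits with 1 mouse sample, which is then assumed to vary like the bovine samples. With edgeR 4189 genes were called, 3196 of them shared with limma, and none was called in the opposite direction. Same-numbered samples are embryos of different species and share only a number: deviations correlated at 0.101 and 0.0270 for the 2 shared numbers, and the fit with a replicate block gave 3774 calls. The median of the primitive endoderm list turned to 0.454 and that of the p53 list to 0.367 with the replicate block, and the cholesterol median to -20.7 at a mean of 50. The cause was not tested. For the named genes 2664 of 2776 results stayed on their side of the threshold, 77 lost and 35 gained a call. Among the 2664, 18 results of 9 genes that were called in neither fit changed sign, and 0 results of called genes did. Limits: 2 mouse samples, as few as 934078 reads in a bovine library, and 1 annotation per species.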

Other observations

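Membrane carriers and vesicle traffic were not described above. Of 16 member carriers of amino acids and nucleosides 8 ranked higher in bovine, 4 of them in every fit that left out 1 sample, and 2 ranked higher in mouse, with a median difference of -23.7 points. Slc38a2, a sodium-coupled carrier of small neutral amino acids, stood at 8.32 and 16.2 in mouse and 87.2, 94.03 and 95.95 in bovine, a difference of -81.1 ± 3.68 points (adjusted p = 1.9e-08). Slc7a5, a carrier of large neutral amino acids, stood at 34.6 and 39.4 and 78.8, 85.7 and 91.1, a difference of -48.5 ± 3.83 points (adjusted p = 1.88e-06). Slc7a6, a carrier of cationic amino acids, ran the other way at 82.7 and 82.4 and 5.77, 11.5 and 43.2, a difference of 64.5 ± 9.77 points (adjusted p = 2.57e-04). No groups overlapped for the 3 carriers.

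Of 33 Rab GTPases, which direct vesicles between compartments, 13 ranked higher in mouse and 9 higher in bovine. Rab13, which serves traffic to tight junctions, stood at 4.05 and 6.10 in mouse and 75.5, 80.3 and 90.7 in bovine, a difference of -76.7 ± 5.58 points (adjusted p = 9.05e-07). Rab20 stood at 84.2 and 79.6 and 0.206, 4.58 and 20.6, a difference of 74.99 ± 6.06 points (adjusted p = 2.28e-06). Rab29 stood at 74.9 and 66.7 and 0.206, 8.85 and 20.6, a difference of 61.7 ± 6.26 points (adjusted p = 1.32e-05). Rab13 was below the bovine range in both mouse samples, and the other two were above it. Of 37 members of the V-ATPase and lysosome 10 ranked higher in mouse and 12 higher in bovine, beside 24.6% and 25.1% of all members. Ctsh, a cathepsin, stood at 45.997 and 37.3 in mouse and 75.3, 81.6 and 91.2 in bovine, a difference of -39.8 ± 4.78 points (adjusted p = 4.9e-05).

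Of 9 S100 and annexin members 5 ranked higher in bovine and 2 higher in mouse. Anxa6, an annexin that binds membranes with calcium, stood at 20.4 and 27.7 in mouse and 83.8, 88.4 and 92.3 in bovine, a difference of -64.7 ± 3.71 points (adjusted p = 1.27e-07). Anxa3 stood at 28.7 and 21.4 and 40.7, 79.8 and 87.4, a difference of -48.6 ± 11.04 points (adjusted p = 0.00372). Of 13 tubulin members 4 ranked higher in bovine and 1 higher in mouse. Tuba4a and Tuba1a, both alpha-tubulins, went opposite ways. Tuba4a stood at 83.4 and 84.3 in mouse and 0.518, 5.33 and 11.02 in bovine, a difference of 78.4 ± 4.95 points (adjusted p = 2.81e-07). Tuba1a stood at 21.3 and 23.2 and 59.8, 83.9 and 92.7, a difference of -59.2 ± 7.56 points (adjusted p = 7.75e-05), and is uncertain because 10 other mouse genes match its transcript. Of 45 nucleoporins and importins 13 ranked higher in mouse and 7 higher in bovine, 4 and 2 of them in every fit that left out 1 sample. Xpo6, which exports actin from the nucleus, stood at 76.04 and 72.5 and 10.95, 11.6 and 23.97, a difference of 60.7 ± 5.48 points (adjusted p = 5.45e-06). Kpna4, an importin, stood at 63.8 and 66.01 and 5.96, 20.1 and 29.7, a difference of 45.1 ± 6.68 points (adjusted p = 2.22e-04). Among 8 members of the Krüppel-like family Klf10 ranked higher in bovine at 43.2 and 45.8 and 76.8, 80.5 and 85.6, a difference of -36.4 ± 3.59 points (adjusted p = 1.07e-05). Klf11 ranked higher in mouse at 22.1 and 20.9 and 3.63, 6.48 and 13.9, and its difference of 13.8 ± 4.41 points (adjusted p = 0.0229) was lost without either mouse sample (adjusted p up to 0.142) and with edgeR (adjusted p = 0.304).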
